A study of Mus musculus with 7 samples.

Results

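The prostaglandin enzymes of secondary follicle-enclosed oocytes were described in *Mfn1*-/- and WT mice through 8 genes. These are the cyclooxygenases *Ptgs1* and *Ptgs2*, the prostaglandin D synthases *Ptgds* and *Hpgds*, the prostaglandin E synthases *Ptges*, *Ptges2* and *Ptges3*, and the degrading enzyme *Hpgd*. They were chosen by gene symbol from the 22877 genes of the table, and *Ptgds* was chosen because its log2 fold change in *Mfn1*-/- oocytes was the second-largest of the table. Its difference is therefore given as a description and not as a test. Of the 8 genes, 6 have values in the table used here, and *Ptgs1* and *Hpgds* were not analysed here. RNA was sequenced from C57BL/6J mice aged 8 weeks, with 5 oocytes pooled in each library, in 4 WT and 3 *Mfn1*-/- libraries. The *Mfn1*-/- mice carry floxed *Mfn1* that is cut by Cre under the *Zp3* promoter, which is active in growing oocytes, so the granulosa cells of the same follicles still have the gene. No drug or hormone treatment is named for these libraries, and the labels do not say which of them came from separate mice.

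Prostaglandins are lipid signals made from arachidonic acid. Phospholipases release the fatty acid from membranes, cyclooxygenases turn it into prostaglandin H, and a terminal synthase then makes the D, E, F or I form, which leaves the cell and acts on receptors of neighbouring cells. In the ovary the pathway is best known from granulosa and cumulus cells, where *Ptgs2* is induced by the ovulatory hormone surge and prostaglandin E supports cumulus expansion and ovulation. *Ptgds* encodes a secreted protein of the lipocalin family that both makes prostaglandin D and carries small lipophilic molecules, and it is known from the brain membranes and the male genital tract.

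The gene with the large difference and the inducible cyclooxygenase at the other end of the range are shown by their promoters, each from 250 bases before to 50 bases after the start of transcription (RefSeq, GRCm38.p6). The *Ptgds* window is chr2:25469700-25469999 on the minus strand, and the *Ptgs2* window is chr1:150099781-150100080 on the plus strand. In the GENCODE M21 annotation, used below for gene positions, *Ptgds* runs from 25466709 to 25470046. Its start there lies before the window, which thus falls inside the gene by that annotation. Capitals mark E-boxes (CANNTG) in both, the AP-1 motif (TGANTCA) in *Ptgds*, and the cAMP response half-site (TGACGT, read on the minus strand) in *Ptgs2*, where the half-site overlaps an E-box.

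Ptgds: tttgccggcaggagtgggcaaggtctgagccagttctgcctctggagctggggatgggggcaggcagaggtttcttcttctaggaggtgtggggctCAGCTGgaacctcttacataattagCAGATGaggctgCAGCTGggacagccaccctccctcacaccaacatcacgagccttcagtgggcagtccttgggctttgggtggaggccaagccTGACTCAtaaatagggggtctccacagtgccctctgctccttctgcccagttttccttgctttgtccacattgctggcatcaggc

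Ptgs2: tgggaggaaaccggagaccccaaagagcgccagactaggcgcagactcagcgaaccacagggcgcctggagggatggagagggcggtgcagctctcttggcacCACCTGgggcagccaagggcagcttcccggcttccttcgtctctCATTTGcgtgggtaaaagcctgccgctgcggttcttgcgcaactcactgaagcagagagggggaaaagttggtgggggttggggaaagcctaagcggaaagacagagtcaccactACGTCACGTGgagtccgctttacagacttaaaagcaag

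All 8 genes had a window among the 32851 promoter windows searched on both strands. *Ptgds* held 3 E-boxes, a motif found in 72.3% of all windows and in 7 of the 8 genes. It also held the AP-1 motif, which is present in 7.81% of all windows and in none of the other 7. The half-site of *Ptgs2* is present in 7.51% of all windows, and the GC box (GGGCGG), which *Ptgds* lacks, in 35.7%. The C/EBP-ATF type motif TGATGNAA occurs in 3.97% of windows and in 0 of the 8. These matches describe the letters of the windows, and no binding was measured.

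The values come from the authors' table, which gives 1 mean of normalized counts for each gene and genotype. No spread between libraries and no depth can be given, no difference was tested, and levels that lie next to each other in an order cannot be told apart from replicate error. No mean lies below 0.01, a value shared by 937 genes in *Mfn1*-/- oocytes and by 922 in WT. Log2 fold changes were computed after adding 0.1 to each mean, and a gene was counted as past 2-fold when the log2 fold change reached 1 in either direction. Of all genes, 4.89% were past 2-fold higher in *Mfn1*-/- oocytes and 2.76% past 2-fold lower. For the 6226 genes whose mean reached 1, the median log2 fold change was 0.16, so small positive values lie near the bulk of expressed genes. *Mfn1* itself, the gene targeted, had means of 0.0577 in *Mfn1*-/- oocytes against 0.616 in WT. Where pairs of means are given below, that of *Mfn1*-/- oocytes comes first. In bulk libraries, fewer RNA copies per oocyte and fewer oocytes that carry the RNA cannot be told apart.

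*Ptgds* was the single gene past 2-fold among the 6 measured of the 8 chosen enzymes. Its authors' mean was 22.7 normalized counts in *Mfn1*-/- oocytes against 0.233 in WT, which gives a ratio of 97.4 and a log2 fold change of 6.10. Thus 1 of the 6 measured genes was past 2-fold higher and 0 were past 2-fold lower, with the higher one chosen for that difference. Among genes with a mean of at least 0.1, which 3 of the 6 reached, 7.27% were past 2-fold higher and 4.24% lower, and at a mean of at least 1, reached by the same 3, these shares were 5.49% and 3.24%, or 8.74% in either direction. In WT oocytes *Ptgds* was a gene of middling level, above 54.1% of the genes in the table, and in *Mfn1*-/- oocytes it stood above 95.3%. The 3 *Mfn1*-/- libraries sum to 68.1 and the 4 WT libraries to 0.932 normalized counts, and how these sums divide among the libraries is not visible in a mean.

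**Figure D1:**
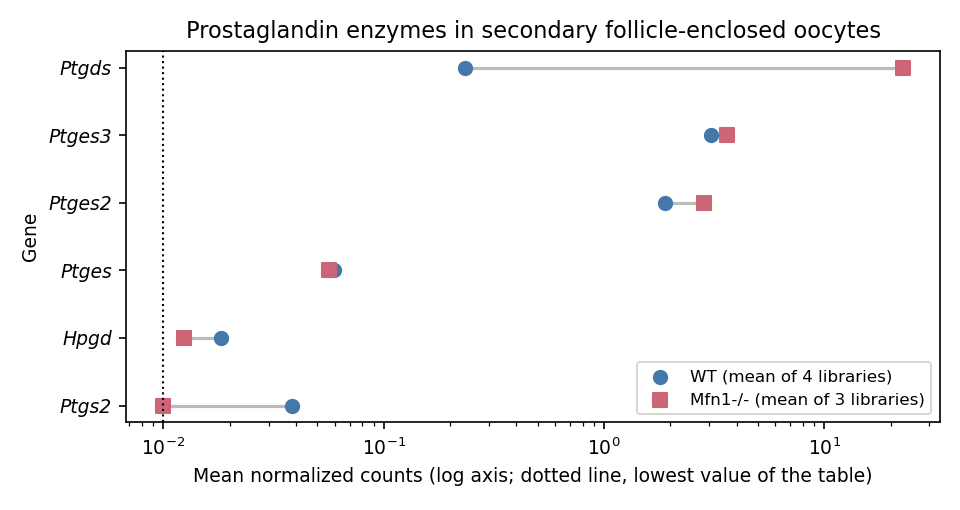
Mean normalized counts (log axis) of the 6 prostaglandin enzymes with values, as the authors' mean of 4 WT (circles) and 3 Mfn1-/- (squares) libraries, without error bars because only means were used. Ptgds stands at 0.233 in WT and 22.7 in Mfn1-/- oocytes, while each of the other 5 genes keeps its pair of points close together except Ptgs2, which reaches the lowest value of the table (dotted line).

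In the order of log2 fold changes, *Ptgds* lay between *Fgf21*, which encodes a secreted metabolic hormone, and *Usp17lb*, which encodes a deubiquitinase. *Fgf21* had means of 18.6 in *Mfn1*-/- oocytes against 0.113 in WT and a log2 fold change of 6.46. *Usp17lb*, the next after *Ptgds*, had 5.24 and 0.098 and a log2 fold change of 4.75. The place of *Ptgds* in this order ran from 1 with a pseudocount of 1 to 3 with a pseudocount of 0.01, and it was 6 by the plain ratio of means. Measured as a difference of means rather than a fold, the 22.5 normalized counts between the genotypes put *Ptgds* at rank 189 among all genes. At the other end of the order, *Gm13228*, named after its value was seen, had means of 0.0572 in *Mfn1*-/- oocytes against 13.2 in WT and a log2 fold change of -6.40, of a size past that of *Ptgds*.

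Genes of a like pattern were sought with the same means by which *Ptgds* was chosen, so what follows is a description. Among the 4706 other genes with a WT mean within 2-fold of its own, the median *Mfn1*-/- mean was 0.236, 114 reached a mean of 1 and 0 reached a mean of 10, with *Fgf21* just outside that window. By distance over the log2 means of both genotypes, the nearest gene was *Fgf21* at 0.705. It was followed by *Cd68*, a lysosomal membrane protein used as a macrophage marker, at 1.98 and by *Tsga8*, a gene named for its expression in testis, at 2.02. *Cd68* had means of 7.58 in *Mfn1*-/- oocytes against 0.672 in WT, and *Tsga8* had 6.19 and 0.479. This likeness rests on 2 genotype means for each gene.

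**Figure D2:**
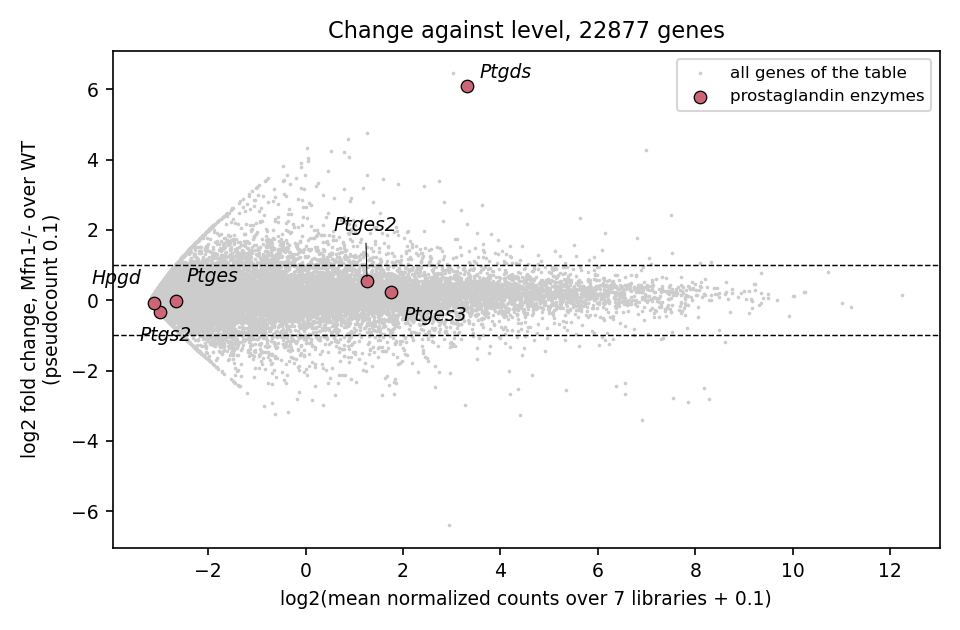
Log2 fold change (Mfn1-/- over WT, pseudocount 0.1) against the log2 mean over the 7 libraries for all 22877 genes (grey) and the 6 prostaglandin enzymes (red), with dashed lines at a 2-fold change. Ptgds lies at 6.10, next to the grey point of Fgf21 at 6.46, and the other 5 enzymes lie between the 2-fold lines, where the place of Ptgs2 depends on the added 0.1.

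Of the cyclooxygenases, *Ptgs2*, the inducible form, was near the bottom of the table in both genotypes. Its mean was 0.0384 normalized counts in WT oocytes and the lowest value of 0.01 in *Mfn1*-/- oocytes, so no fold is given. The WT level stood above 27.1% of the genes in the table. *Hpgd*, which inactivates prostaglandins by oxidising them, was also close to the lowest value, with means of 0.0124 in *Mfn1*-/- oocytes against 0.0183 in WT. At these levels a difference was not detectable from the means.

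The prostaglandin E synthases differed more among themselves in level than between genotypes. *Ptges*, the inducible microsomal synthase, had a mean of 0.0564 in *Mfn1*-/- oocytes against 0.0595 in WT, a log2 fold change of -0.03. *Ptges2*, a membrane-bound synthase, had 2.83 and 1.90, a log2 fold change of 0.55 that exceeded that of 86.3% of all genes. *Ptges3*, the HSP90 co-chaperone p23 that is also named a cytosolic synthase, had 3.61 and 3.06, a log2 fold change of 0.23. With the median of expressed genes subtracted, the log2 fold changes of *Ptges2* and *Ptges3* were 0.39 and 0.07. The 5 genes other than *Ptgds* had a median log2 fold change of -0.03, against 0.04 over all genes of the table.

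The make-up of the measured enzymes differed between the genotypes mainly in *Ptgds*. The 6 means summed to 29.2 normalized counts in *Mfn1*-/- oocytes against 5.31 in WT, and without *Ptgds* to 6.52 and 5.08. *Ptgds* made up 77.7% of the sum in *Mfn1*-/- and 4.39% in WT oocytes. Per kilobase of exonic sequence (GENCODE M21), these shares were 86.2% and 7.32%. In WT oocytes the order of levels per kilobase was *Ptges3* at 1.38, *Ptges2* at 0.376, *Ptgds* at 0.141, *Ptges* at 0.0151, *Hpgd* at 0.0109 and *Ptgs2* at 0.00838. In *Mfn1*-/- oocytes *Ptgds* led with 13.8 per kilobase, followed by *Ptges3* with 1.63 and *Ptges2* with 0.56, and *Ptges*, *Hpgd* and *Ptgs2* kept their order below them. Without division by length the order was the same, except that *Ptgs2* stood above *Hpgd* in WT oocytes. Whether the authors' normalization already accounts for length is not given in the sources used here. Across 4580 protein-coding genes with a mean of at least 1, the mean was lower in longer genes (Spearman's rho = -0.36, across genes, which are not independent replicates).

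The genes differ in how surely their values are their own. *Ptgds* lies on chromosome 2 of GRCm38 from 25466709 to 25470046 on the minus strand, has up to 8 exons in a transcript, overlaps 0 other genes and shares no stretch of at least 75 bases at 95% identity with another gene's transcripts. *Ptgs2* (chromosome 1, 150100031 to 150108227) was equally free of overlap and shared stretches. *Ptges3* (chromosome 10, 128058954 to 128077272) shares such stretches with the pseudogenes *Ptges3-ps* and *Gm11893*. Their means summed to 20.0 in *Mfn1*-/- oocytes against 14.6 in WT, more than *Ptges3* itself, so reads of the gene could have been divided with them. *Ptges2* (chromosome 2, 32395896 to 32405772) shares a stretch with 3 other genes, 2 of which have values that summed to 39.8 and 76.4, also above those of *Ptges2*. Of the rest, *Ptges* (chromosome 2, 30889471 to 30929863) and *Hpgd* (chromosome 8, 56294585 to 56321043) each overlap another gene on their own strand. With *Ptgs1*, 4 of the 8 genes lie on chromosome 2.

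The genes around *Ptgds* were also mostly higher in *Mfn1*-/- oocytes, by far less. Of the 15 other genes that start within 100 kb of *Ptgds*, 11 have values, and 10 of these had a higher and 1 a lower mean in *Mfn1*-/- oocytes. Against the median of expressed genes, 9 lay above it and 2, *C8g* and *Clic3*, below. Past 2-fold higher were 3 of the 11, against 4.89% of all genes and 7.27% of those with a mean of at least 0.1. The median log2 fold change of the 11 was 0.84. *Paxx*, a factor of DNA end joining, had means of 1.26 in *Mfn1*-/- oocytes against 0.246 in WT (log2 fold change 1.98). *Entpd2*, an enzyme that hydrolyses extracellular ATP, had 3.41 and 0.811 (1.95), and *Npdc1* had 1.70 and 0.425 (1.78). *Entpd2* and *Npdc1* overlap each other on 1 strand, so their reads may not be separable. *Paxx* overlaps *Clic3* on the opposite strand, and *Clic3* had 0.397 and 0.379 (0.05). *Sapcd2* had 3.42 and 1.67 (0.99), just short of 2-fold, and *Abca2*, a lipid transporter, had 0.339 and 0.141 (0.86).

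**Figure D3:**
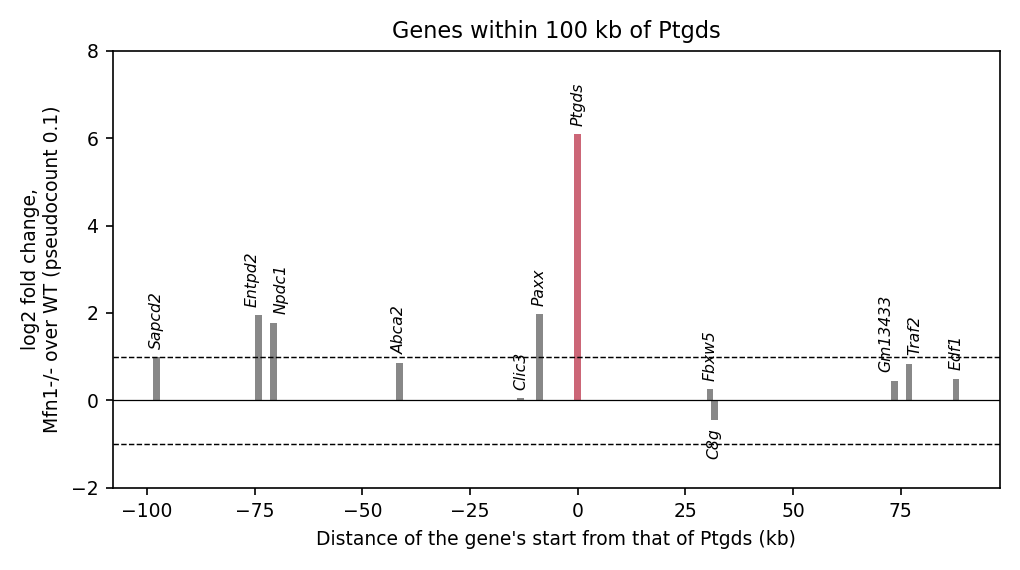
Log2 fold change (Mfn1-/- over WT, pseudocount 0.1) of the genes with values that start within 100 kb of Ptgds, placed by the distance of their start from that of Ptgds in kb, with dashed lines at a 2-fold change. Ptgds (red) reaches 6.10, Paxx, Entpd2 and Npdc1 lie between 1.78 and 1.98, and C8g lies below 0.

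On the other side of *Ptgds*, *C8g*, a lipocalin that is a chain of a complement component, was lower in *Mfn1*-/- oocytes, with means of 2.81 and 3.88 and a log2 fold change of -0.45. *Fbxw5* had 1.05 and 0.862 (0.26), *Gm13433* 0.809 and 0.564 (0.45), *Traf2* 0.227 and 0.0828 (0.84), and *Edf1* 33.3 and 23.5 (0.50). No measured lipocalin other than *Ptgds* was past 2-fold. Of 22 other lipocalin genes listed, 2 have values, *C8g* and *Apod*, which had means of 0.111 in *Mfn1*-/- oocytes against 0.134 in WT.

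Among the other genes of the prostanoid pathway, few were past 2-fold, as among all genes. Of 63 further genes listed for release, synthesis, receptors, transport, inactivation and the lipoxygenase branch, 50 have values. Past 2-fold were 1 higher and 1 lower, 4% of the 50 against 7.65% of all genes in either direction. The median log2 fold change of the 50 was 0.02, against 0.04 over all genes, and 26 of them had a mean under 0.1. A higher mean in *Mfn1*-/- oocytes was found for 30 of the 50 and a lower one for 19. Genes with a mean under 0.1 can hardly pass 2-fold once 0.1 is added, which also keeps their log2 fold changes small. Of the 24 with a mean of at least 0.1, 8.33% were past 2-fold against 11.5% of all genes at that level, and of the 8 with a mean of at least 1, 12.5% against 8.74%, so the list lay near the share of all genes.

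**Figure D4:**
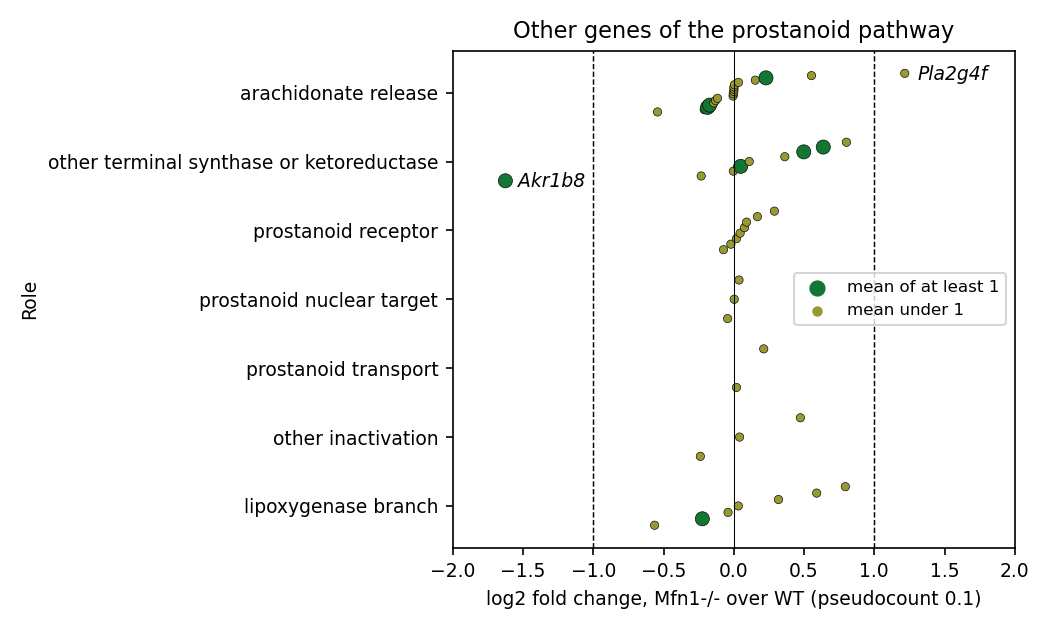
Log2 fold change (Mfn1-/- over WT, pseudocount 0.1) of the 50 further prostanoid pathway genes with values, 1 point per gene, grouped by role, with large points for a mean of at least 1 and small points for lower means. Pla2g4f at 1.22 and Akr1b8 at -1.63 are the points outside the dashed 2-fold lines.

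Among the 18 measured genes of arachidonate release, *Pla2g4f*, a cytosolic phospholipase A of the group that cuts membrane phospholipids, was past 2-fold higher. Its means were 0.509 in *Mfn1*-/- oocytes against 0.162 in WT, a log2 fold change of 1.22. The most abundant gene of this role was *Pla2g4c*, a calcium-independent relative, with 9.21 and 10.5. *Pla2g12a*, a secreted phospholipase, had 2.66 and 3.01, and *Daglb*, which makes an arachidonate-bearing signal lipid, had 2.22 and 1.88.

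Among the other terminal enzymes, *Akr1b8*, an aldo-keto reductase, was past 2-fold lower. Its means were 0.739 in *Mfn1*-/- oocytes against 2.49 in WT, a log2 fold change of -1.63, and as a member of a family of close copies its reads may be shared. *Akr1b3*, aldose reductase, which can also make the F form, had 26.9 and 26.0. *Cbr1*, a carbonyl reductase that turns prostaglandin E into the F form, had 19.8 and 12.7, a log2 fold change of 0.64. *Fam213b*, a prostaglandin F synthase, had 1.68 and 1.16 (0.50).

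The receptors were measured at low levels in both genotypes. The 8 genes with values listed as receptors summed to 0.558 normalized counts in *Mfn1*-/- oocytes against 0.488 in WT. Of them, 6 had a mean under 0.1 and 0 were past 2-fold, against 7.65% of all genes. They include *Ptgfrn*, a regulator of the receptor for the F form and not itself a receptor, with 0.133 and 0.121. *Ptger4*, a prostaglandin E receptor named here after its value was seen, was the highest of them, with 0.259 and 0.237. *Ptgr1*, which reduces prostaglandins that *Hpgd* has oxidised, had 0.833 in *Mfn1*-/- oocytes against 1.00 in WT. On the leukotriene side, *Ltc4s*, the leukotriene C synthase, was the most abundant gene of the whole list with 33.9 and 39.6, a log2 fold change of -0.22.

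The oocyte label held in both genotypes. The 15 oocyte markers, among them *Gdf9* and *Zp3*, summed to 5183 normalized counts in *Mfn1*-/- oocytes against 5085 in WT. Past 2-fold were 0 of the 15, against 8.74% of all genes with a mean of at least 1, which 14 of the 15 reached. The marker sums of other ovarian cells were lower than that of the oocyte markers. The 13 granulosa cell markers with values summed to 3.26 in *Mfn1*-/- oocytes against 3.54 in WT, with 4 higher and 9 lower. Past 2-fold were 0 of the 13, against 7.65% of all genes. Of the 13, 8 had a mean under 0.1, where the added 0.1 keeps log2 fold changes small. *Inha*, with 1.87 and 0.954, had the highest log2 fold change of the list (0.90). *Esr2*, an estrogen receptor, with 0.929 and 1.86, had the lowest (-0.93). Without *Inha* the sums were 1.39 and 2.59, but these leave out the highest change and keep the lowest, so they show no direction for the list. These 2 genes had the highest means of the list, while the defining markers *Fshr*, *Amh* and *Foxl2* were each below 0.06 in both genotypes. Theca and steroidogenic markers summed to 0.65 and 0.49, stromal markers to 0.0282 and 0.0298, endothelial markers to 0.221 and 0.26, and the 1 erythroid marker with a value had 0.0285 and 0.0793.

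Of 8 leukocyte markers, 5 have values and 1, *Cd68*, was past 2-fold higher, against 4.89% of all genes and 7.27% of those with a mean of at least 0.1. *Cd68* also came after *Fgf21* in distance from *Ptgds*, at 1.98 against 0.705, and *Tsga8* was about as far at 2.02. The list summed to 8.33 in *Mfn1*-/- oocytes against 1.66 in WT. Without *Cd68*, and without *Kit*, which oocytes also express, the sums were 0.0697 and 0.0673. These smaller sums leave out the only marker of the list past 2-fold. *Csf1r* had 0.0316 and 0.0426. The part of other cell types in the *Ptgds* difference was not tested, and marker sums do not show how much *Ptgds* RNA such cells would bring.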

How the data were processed

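RNA was amplified from 5 pooled oocytes per library with Smart-Seq2 and sequenced as 75 bp read pairs. Per the processing notes and the methods, Cutadapt and the FASTX-Toolkit cleaned the reads and STAR placed them on GRCm38/mm10, after which the authors counted reads per gene, on an annotation and with a count normalization not given in the sources used here (DESeq is named for the comparison). The deposited signal is the authors' mean normalized count for each genotype, with a total over libraries. In 100% of genes that total came within 1% of 3 *Mfn1*-/- means and 4 WT means added together, so 7 libraries enter the means, while the study's design text gives n = 3 per group. Depth per library is unknown. A further 4 columns hold the authors' own comparison (p-value, FDR, ratio and fold change) and were not used, and 0 columns of per-sample values were left unused.

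Groups were taken from the sample titles. The planned limma fit needs values of single libraries and could not be fitted, so no difference was tested. The members and lists were chosen with earlier results of these data known. Genes named are the 8 enzymes, *Mfn1*, pathway genes past 2-fold or with a mean of at least 1 in a genotype, related genes past 2-fold or among the 3 most abundant of their list, genes starting within 100 kb of *Ptgds*, its neighbours in the order of change and the 3 genes nearest to it. Further genes were named as markers of their lists. Genes were matched by symbol to GENCODE M21, shared stretches were found with blastn 2.17.0, and promoters came from RefSeq. Values were computed with scipy 1.17.1, pandas 2.3.3 and numpy 2.4.6 under Python 3.11.15 and drawn with matplotlib 3.10.9. The code for the fold calls was checked on simulated means without noise, which is not a test of any difference between genotypes. Alternatives were other pseudocounts, minimum means of 0.1 and 1, and other scalings.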

Additional observations from a re-analysis of the deposited data

How the results depend on the processing

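The difference of *Ptgds* was past 2-fold in every setting run, which its choice for a large rise in these same means made nearly sure beforehand. On the log2 scale it came to 6.55 when 0.01 was added to each mean, 4.26 when 1 was added, 5.97 with each genotype scaled to the same sum, 5.94 with the median of expressed genes subtracted, and 6.61 for the plain ratio, which was chosen after seeing the data. Among the 6 measured enzymes, *Ptgs2* also passed 2-fold, as 1 lower gene, with a pseudocount of 0.01 and by the plain ratio, which made 2 genes past 2-fold in all. This follows from its *Mfn1*-/- mean at the lowest value. Of the further pathway genes, 5 were higher and 6 in all past 2-fold with a pseudocount of 0.01, and 7 and 8 by the plain ratio. These are 12% and 16% of the 50, against 17.1% and 21.1% of all genes. With a pseudocount of 1, 0 were higher and 1 in all passed, 2% of the 50 against 1.4% of all genes. With genes of a mean of at least 1, where 8 had a value, 0 were higher and 1 in all passed. That is 12.5% against 8.74% of all genes at that level. Under other settings the count of all genes past 2-fold higher ran from 210 with a pseudocount of 1 to 2920 by the plain ratio, and that lower from 111 to 1911. With the median subtracted, 818 genes were higher and 916 lower, against 1118 and 631 without.

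No paired analysis was possible because the table used here gives 1 mean per genotype. For the same reason leaving out each library in turn was not run, and it is not known whether 1 library carries the mean of *Ptgds*. Depth per library is unknown, and for genes near 0.01, the lowest value of the table, the fold depends on the pseudocount.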

Other observations

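*Ptges* is related to the microsomal glutathione transferases and *Hpgds* is itself a glutathione transferase. All 12 genes listed for these families have values, 11 had a higher and 1 a lower mean in *Mfn1*-/- oocytes, and 2, the near-identical *Gstp1* and *Gstp2*, were past 2-fold higher, 16.7% of the 12 against 4.89% of all genes and 5.49% of those with a mean of at least 1. Against the median of expressed genes, 8 lay above and 4 below. *Gstp1*, a cytosolic transferase that detoxifies electrophiles, had means of 74.0 in *Mfn1*-/- oocytes against 24.7 in WT, a log2 fold change of 1.58. *Gstp2* had 19.6 and 5.10 (1.92), and reads of near-identical copies cannot always be told apart. *Gstm5*, the most abundant of the list, had 129 and 156, a log2 fold change of -0.27.

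*Ptges3* works with HSP90. Of the 12 genes listed for that chaperone machine, 0 were past 2-fold, against 8.74% of all genes with a mean of at least 1. Of the 12, 11 reached that mean. The means were higher for 7 and lower for 4, with *Hsp90aa1* at 125 in both genotypes. Against the median of expressed genes, 6 lay above and 6 below. *Hspa8*, a constitutive heat shock protein, had means of 159 in *Mfn1*-/- oocytes against 87.0 in WT, a log2 fold change of 0.87, and *Hsp90ab1* had 45.1 and 41.0. *Ptges3l*, a gene similar to *Ptges3*, had 1.94 and 3.02 (-0.61), and it was named after its value was seen.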
